A study of Mus musculus with 12 samples.

Results

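BCL2 proteins and the receptor Fas govern whether a cell enters apoptosis, and 10 of their genes were followed by name in the deposited gene table: the survival genes Bcl2, Bcl2l1, Mcl1 and Bcl2a1b, the effectors Bax and Bak1, the BH3-only genes Bid, Bcl2l11 and Bmf, and Fas. All 10 were found among its 27179 genes, and all 10 were among the 13415 genes with enough reads to be tested. RNA sequencing was done on conventional dendritic cells of type 1 (cDC1) and type 2 (cDC2) from the spleens of female C57/BL6 mice. The groups were cDC1 and cDC2 of zfp366-/- mice (KO), and cDC1 and cDC2 of zfp366+/+ mice (WT), with 3 libraries in each. Each library came from a pool of mice, numbered 1 to 3 in KO and 4 to 6 in WT, and every pool gave 1 cDC1 and 1 cDC2 library. The targeted gene makes the zinc finger protein DC-SCRIPT, and the labels name no other allele, promoter or Cre. Collagenase and DNAse were used to digest every spleen, and no age or further treatment is given.

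BCL2 proteins act at the outer membrane of mitochondria. The survival members BCL2, BCL-XL (from Bcl2l1), MCL1 and A1 (from Bcl2a1b) hold back BAX and BAK (from Bak1), which otherwise open that membrane and let cytochrome c out. The BH3-only proteins BID, BIM (from Bcl2l11) and BMF bind the survival members or activate BAX and BAK. Fas is a death receptor on the cell surface that recruits FADD and caspase-8, and caspase-8 cuts BID, which joins the receptor route to the mitochondria. In mouse dendritic cells, BIM and Fas are known to limit life span and MCL1 to sustain it.

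Total counts per library ran from 11330503 to 36761685. Levels are in CPM, a gene's reads relative to the TMM-scaled total of its library, for replicates 1, 2 and 3 in that order and as mean ± SD over n = 3. The 9 cDC1 markers summed to 6039 to 6816 CPM in KO cDC1 and 6898 to 8550.0 CPM in WT cDC1. In KO cDC2 they summed to 965 to 1323 CPM and in WT cDC2 to 797 to 1004 CPM. Most of the cDC2 sums was Wdfy4, at a mean of 950.1 CPM in KO and 751.7 CPM in WT. Cd8a and Wdfy4 had a higher mean in KO cDC1 than in WT cDC1, and the other cDC1 markers a lower one. Itgae was at 10.8 CPM in KO cDC1 and 176.2 CPM in WT cDC1, and Xcr1 at 456.5 and 998.9 CPM. The 9 cDC2 markers summed to 525.1 to 532.2 CPM in KO cDC1 and 66.4 to 86.5 CPM in WT cDC1, with 9 and 8 of 9 at a mean of at least 1 CPM. They summed to 2143 to 2580 CPM in KO cDC2 and 2050.1 to 2320.4 CPM in WT cDC2. The 6 monocyte markers summed to 527.5 to 667 CPM in KO cDC1 and 96.8 to 147.9 CPM in WT cDC1. The monocyte sum differed through Ccr2, at a mean of 524.8 CPM in KO cDC1 and 69.4 CPM in WT cDC1. Of the other 5 monocyte markers, Csf1r was at 34.4 and 26.2 CPM, and Ly6c2, Ly6c1, Fcgr1 and Fcgr4 were at 1.02 to 12.8 CPM in KO cDC1 and 1.08 to 12.6 CPM in WT cDC1. All 9 cDC2 markers had a higher mean in KO cDC1 than in WT cDC1. No marker of these lists was at 0, and their part in the results on KO cDC1 was not tested. The 7 macrophage markers summed to 82.1 to 192.4 CPM over all cDC1 libraries and to 238.1 to 485.7 CPM over all cDC2 libraries. That gap was mostly Adgre1, at no more than 16.8 CPM by mean in either cDC1 group, against 184.5 CPM in KO cDC2 and 201.4 CPM in WT cDC2, while Vcam1 was highest in WT cDC1 (73.6 CPM). The part of these markers in the differences between subsets was not tested.

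Zfp366 itself had 48.8, 48.4 and 45.4 CPM in KO cDC1, against 152.3, 89.2 and 67.5 CPM in WT cDC1, and 55.0, 80.6 and 65.1 CPM in KO cDC2, against 52.6, 62.4 and 57.4 CPM in WT cDC2. Counts over the whole gene passed the test in cDC1 (log2 fold change -1.12, SE 0.27, edgeR adjusted p = 0.0326) and did not in cDC2 (0.22). In cDC1 the change was -0.76 within replicates 2 and 3 (adjusted p = 0.00163) and -1.64 in the pair numbered 1, with no test. The Zfp366 call ended in the fit on the 6 cDC1 libraries alone (adjusted p = 0.0863), without any single KO cDC1 library (0.114 to 0.142), without WT cDC1 replicate 2 (0.0718) and without KO cDC2 replicate 3 (0.0562). Without WT cDC1 replicate 1 the change was -0.72 (adjusted p = 0.0247). Which exons were deleted is not given in the sources used here. Libraries numbered 1 stood apart from those numbered 2 and 3. The calls among the 10 genes are therefore also given within replicates 2 and 3 and within the libraries numbered 1. The same holds for calls between genotypes of the other genes named. Replicates 2 and 3 leave n = 2 per group, and within them 47.8% of all genes were called in cDC1. The split followed from these same data, so a call within it is not independent support.

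Reads of Bcl2a1b are hard to tell from those of its neighbours, so the sequences that separate the copies are shown first. Mice carry several near-identical Bcl2a1 genes on chromosome 9. Over 516 coding bases, Bcl2a1b differed from Bcl2a1a at 11 bases (97.9% identity) and from Bcl2a1d at 6 (98.8%). Given below, 5′ to 3′ on each gene's own strand, are coding bases 1 to 120 of the 3 copies, from the GENCODE M21 transcripts of GRCm38, at chr9:89199360-89199479 (+) for Bcl2a1b, chr9:88957051-88957170 (+) for Bcl2a1a and chr9:88731600-88731719 (-) for Bcl2a1d. Capitals mark the 7 positions at which the copies are not all alike.
Bcl2a1b: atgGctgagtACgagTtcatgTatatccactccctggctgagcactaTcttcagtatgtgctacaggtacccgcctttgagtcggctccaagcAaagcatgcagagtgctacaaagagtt
Bcl2a1a: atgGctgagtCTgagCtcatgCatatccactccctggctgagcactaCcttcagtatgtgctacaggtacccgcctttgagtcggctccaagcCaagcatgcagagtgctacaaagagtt
Bcl2a1d: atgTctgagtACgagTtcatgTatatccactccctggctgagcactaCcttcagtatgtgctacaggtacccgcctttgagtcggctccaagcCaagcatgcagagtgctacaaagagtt
Of all 75-base windows of the annotated Bcl2a1b transcript, 56.5% occurred in neither of the other 2 copies. The share was 42.4% for 50-base windows and 68.9% for 100-base windows. The read length is not given in the sources used here, nor is how reads that fit more than 1 copy were counted. Values for Bcl2a1b are therefore those of the deposited assignment.

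Of the 10 genes, edgeR called Fas and Bmf between the genotypes, both in cDC1. Their promoters follow, as the 250 bases before an annotated start in RefSeq's GRCm38.p6. The Fas promoter lies at chr19:34290409-34290658 (+), and capitals mark a GC box, the GGGCGG letters bound by SP1. The Bmf promoter is that of the most upstream of 3 annotated starts, at chr2:118549687-118549936 (-), and has no match to the motifs searched.
Fas: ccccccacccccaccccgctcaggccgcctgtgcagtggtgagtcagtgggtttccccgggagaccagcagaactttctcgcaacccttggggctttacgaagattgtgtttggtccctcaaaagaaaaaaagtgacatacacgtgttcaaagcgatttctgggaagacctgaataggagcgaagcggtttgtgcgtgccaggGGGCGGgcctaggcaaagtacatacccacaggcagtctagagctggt
Bmf: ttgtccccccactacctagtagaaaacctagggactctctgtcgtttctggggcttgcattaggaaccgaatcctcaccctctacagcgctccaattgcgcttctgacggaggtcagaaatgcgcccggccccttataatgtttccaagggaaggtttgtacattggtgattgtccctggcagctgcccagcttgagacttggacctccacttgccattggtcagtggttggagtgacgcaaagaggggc
5 motifs were searched on both strands in the 250 bases before each of 32851 annotated mouse starts. The forkhead letters TGTTTAC, bound by FOXO proteins, stood in 3.17% of all promoters and before 1 of the 2 starts of Bcl2l11. The ETS letters GAGGAAGT, which PU.1 can bind, stood in 2.44% of all promoters, in that of Bcl2a1b and in that of Bak1. GGGCGG stood in 32.7% of all promoters and in those of Bcl2, Mcl1, Bcl2a1b, Bax, Bid and Fas and before both starts of Bcl2l11. The interferon-stimulated response element core (2.98% of all promoters) and the NF-kB motif (0.14%) stood before no start of the 10 genes. These matches describe the letters only.

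Levels can be ordered between genes only per length, as RPKM (CPM per 1000 bases of the deposited gene length). Bcl2a1b and Mcl1 led in every group: Bcl2a1b averaged 432.0 RPKM in KO cDC1, 508.9 in WT cDC1, 1388 in KO cDC2 and 1251 in WT cDC2, and Mcl1 averaged 341.4, 208.2, 233.6 and 248.4 RPKM in the same groups. Bax (87.0 to 113.9 RPKM), Bak1 (44.4 to 73.8) and Bid (20.2 to 46.4) followed in that order in all 4 groups. Bmf, Bcl2l11, Bcl2l1 and Fas lay between 2.04 and 16.3 RPKM, and Bcl2 between 0.832 and 2.53 RPKM. Bcl2 was the lowest of the 10 in WT cDC1, KO cDC2 and WT cDC2, and Fas was the lowest in KO cDC1. Within the survival members, the messages of Bcl2a1b and Mcl1 thus stood far above those of Bcl2l1 and Bcl2 in each group.

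**Figure D1:**
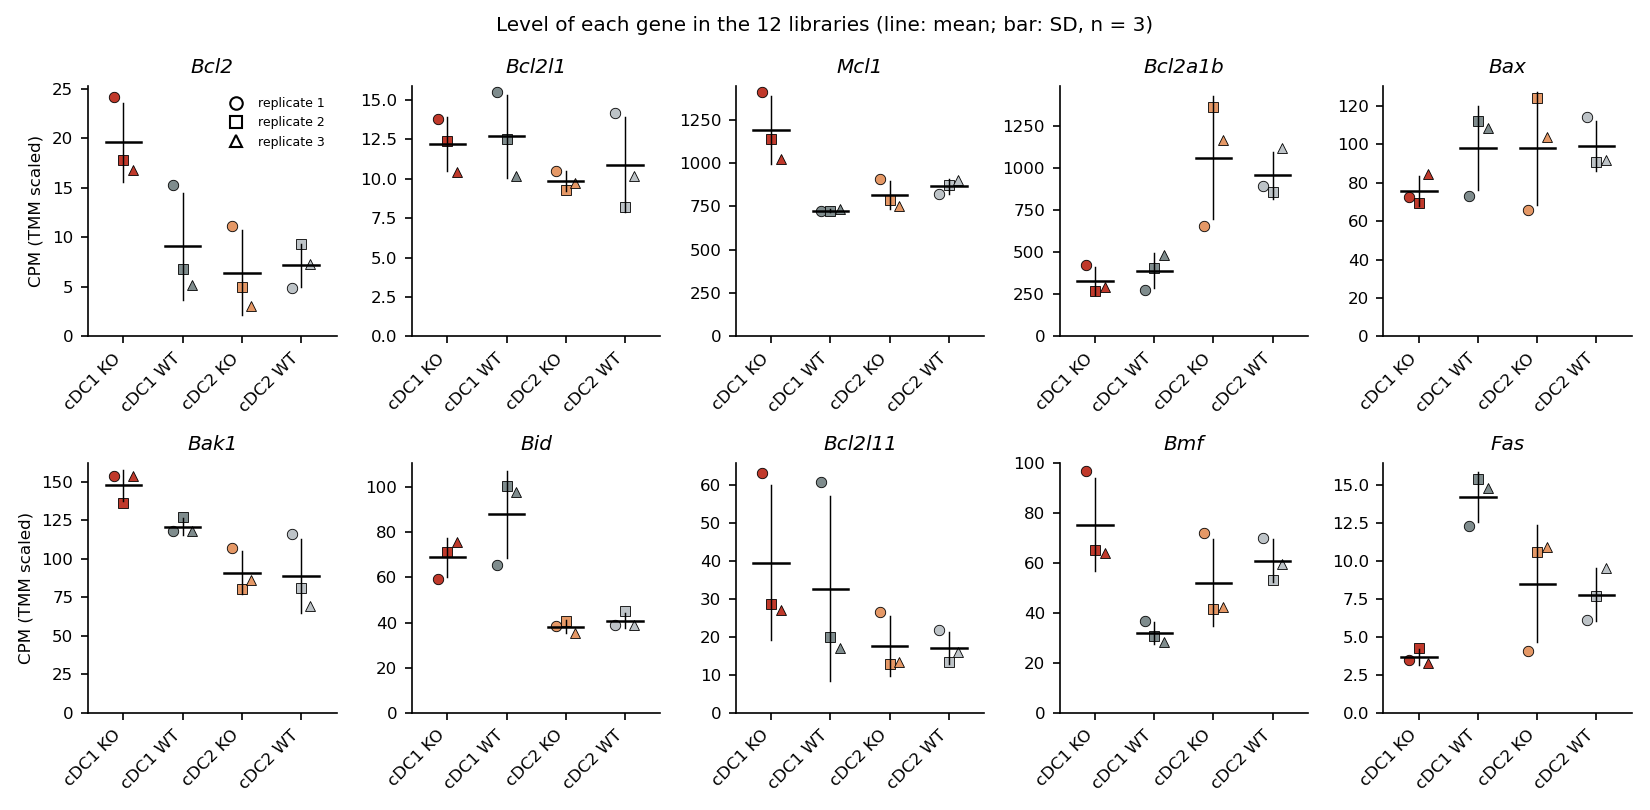
Level of each of the 10 genes in CPM (vertical axes from 0, 1 scale per gene) in the 12 libraries, by group, with the mean as a line and the SD as a bar (n = 3); circles, squares and triangles are replicates 1, 2 and 3. By mean, Fas is lowest in KO cDC1, at 3.28 to 4.30 CPM, and Bmf in WT cDC1, at 28.4 to 36.9 CPM. Bcl2l11 is highest in replicate 1 of every group.

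The first comparison asked what the loss of Zfp366 went with in cDC1. Fas fell and Bmf rose, so that a death receptor and a BH3-only gene moved in opposite directions, and the other 8 genes did not pass. 2 of 10 genes were called, at an adjusted p below 0.05 over all genes in edgeR's quasi-likelihood test, where 5.32% of all genes tested were called. 1 was called higher, as were 3.6% of all genes, and 1 lower, as were 1.72%. The 10 genes had a median log2 fold change of 0.107 (KO over WT), against -0.000775 over all genes tested. The libraries of 5 of the 10 genes parted by genotype without overlap, against 26.9% of all genes. 4 of these were higher in KO (15.5% of all genes) and 1 lower (11.4%). In RNA from many cells at once, fewer cells of a type and less RNA per cell cannot be told apart.

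Fas, which encodes the death receptor CD95 (chr19:34290647-34327775, +, Entrez Gene 14102), had 3.46, 4.30 and 3.28 CPM in KO cDC1, against 12.3, 15.4 and 14.8 CPM in WT cDC1. The highest KO library lay below the lowest WT library by a wide margin. Means were 3.68 ± 0.548 CPM in KO and 14.2 ± 1.64 CPM in WT, a log2 fold change of -1.94 (SE 0.36, 0.26-fold, adjusted p = 0.00639). Fas also fell within replicates 2 and 3 (-2.02, adjusted p = 3.81e-05), where 47.8% of all genes were called. The single pair numbered 1 differed by -1.81, with no test. The call was held in each of the 20 tested alternatives, with an adjusted p of at most 0.0449. Its level in KO cDC1 was also below the means of KO cDC2 (8.51 ± 3.86 CPM) and WT cDC2 (7.78 ± 1.73 CPM).

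Bmf, a BH3-only gene (chr2:118528757-118549686, -, Entrez Gene 171543), had 96.9, 65.4 and 64.2 CPM in KO cDC1, against 36.9, 30.8 and 28.4 CPM in WT cDC1. Every KO library was above every WT library, and replicate 1 was the highest in both groups. Means were 75.5 ± 18.6 CPM in KO and 32.1 ± 4.36 CPM in WT, a log2 fold change of 1.24 (SE 0.26, 2.36-fold, adjusted p = 0.0162). The rise was 1.11 within replicates 2 and 3 (adjusted p = 3.04e-05), and the pair numbered 1 differed by 1.39, with no test. The call ended without KO replicate 1 (1.02, adjusted p = 0.0847), without WT replicate 2 (1.21, adjusted p = 0.0855) and without WT replicate 3 (1.16, adjusted p = 0.0805).

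Of the survival genes, Mcl1 and Bcl2 had KO libraries wholly above WT libraries in cDC1 without passing. Mcl1 (chr3:95656944-95663179, +) had 1410, 1139 and 1023 CPM in KO cDC1, against 721, 724 and 733 CPM in WT cDC1. The WT libraries lay close together and the KO libraries further apart, with replicate 1 the highest. The log2 fold change was 0.71 (SE 0.20, approximate 95% interval 0.323 to 1.10), with an adjusted p = 0.0594 by edgeR, 0.046 by limma-voom and 0.001 by DESeq2. edgeR called it without WT cDC1 replicate 1 (adjusted p = 0.0271), without KO cDC2 replicate 1 (adjusted p = 0.0409) and within replicates 2 and 3 (0.55, adjusted p = 0.00133).

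Bcl2 (chr1:106538176-106714290, -) had 24.2, 17.8 and 16.8 CPM in KO cDC1, against 15.3, 6.84 and 5.20 CPM in WT cDC1. WT replicate 1 was more than double the other WT libraries and just under the lowest KO library. The log2 fold change was 1.11 (SE 0.48, interval 0.157 to 2.05, adjusted p = 0.241). It was 1.71 without that WT library (adjusted p = 0.0292) and 1.50 within replicates 2 and 3 (adjusted p = 0.000756). At 7749 bases Bcl2 is the longest of the 10 genes, and its libraries also differed in how level followed gene length. Over all genes tested, Spearman's rho between gene length and the level relative to the 12-library mean was 0.303 to 0.411 in KO cDC1. It was 0.447 in WT cDC1 replicate 1 and -0.242 and -0.335 in replicates 2 and 3. With a length trend removed per library, the change of Bcl2 was 0.87 (adjusted p = 0.175), that of Bmf 1.02 (adjusted p = 0.0208) and that of Fas -1.85 (adjusted p = 0.0058).

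The remaining 6 genes gave no call in cDC1. Bak1, an effector (chr17:27019812-27028627, -), had 153.8, 136.2 and 153.5 CPM in KO cDC1, against 117.8, 127.5 and 117.8 CPM in WT cDC1. The KO libraries were all higher, but the log2 fold change of 0.29 (SE 0.21, interval -0.128 to 0.705) had an adjusted p = 0.504. Bcl2l11, which encodes BIM (chr2:128126038-128162547, +), had 63.2, 28.7 and 27.0 CPM in KO cDC1, against 60.8, 20.1 and 17.1 CPM in WT cDC1. Replicate 1 was more than double the other 2 libraries of either genotype, and its change had a wide interval (0.28, interval -0.693 to 1.25, adjusted p = 0.806). Bcl2l1, which encodes BCL-XL (chr2:152758732-152833803, -), averaged 12.2 ± 1.71 CPM in KO cDC1 and 12.7 ± 2.64 CPM in WT cDC1, and its interval was -0.563 to 0.434. Bid (chr6:120893119-120917062, -) averaged 68.8 ± 8.65 CPM in KO cDC1 and 87.8 ± 19.4 CPM in WT cDC1 (interval -0.753 to 0.0479), Bax (chr7:45461695-45466903, -) 75.6 ± 7.89 and 98.0 ± 21.7 CPM (-0.869 to 0.118), and Bcl2a1b (chr9:89199273-89207838, +) 330.0 ± 82.0 and 389 ± 104 CPM (-0.838 to 0.365). These 4 genes had overlapping libraries.

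Within replicates 2 and 3, 8 of the 10 genes were called in cDC1, where 47.8% of all genes tested were. Beside Fas, Bmf, Mcl1 and Bcl2, these were Bcl2l11 (0.56, adjusted p = 0.0154), Bcl2a1b (-0.67, adjusted p = 0.00272), Bax (-0.55, adjusted p = 0.00437) and Bid (-0.45, adjusted p = 0.0108). In the pair numbered 1, Bcl2a1b differed the other way, by 0.61, and Bax differed by -0.0048.

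**Figure D2:**
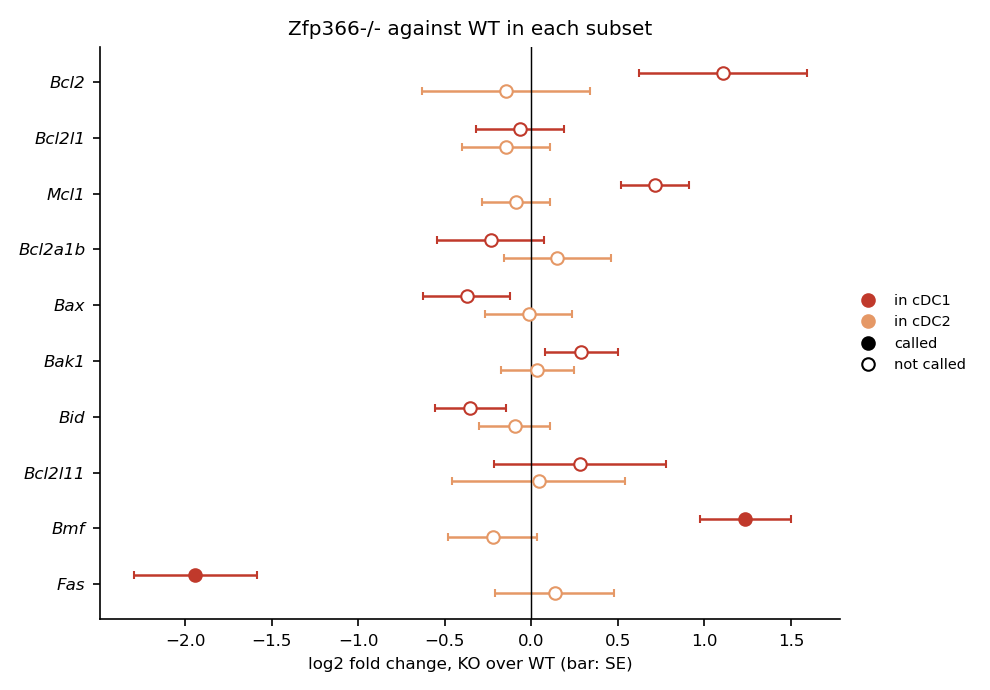
Log2 fold change of KO over WT (horizontal axis) for each gene in cDC1 and cDC2, with its SE as a bar; filled points were called at an adjusted p below 0.05. Only Fas (-1.94) and Bmf (1.24) in cDC1 are filled, and no gene is called in cDC2.

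In cDC2 the second comparison gave no call among the 10 genes. Over all genes the share called was 0.0% by edgeR, and DESeq2 and limma-voom called no gene either; 2.02% of all genes had an unadjusted p below 0.05, and none of the 10 did. KO and WT libraries overlapped for all 10 genes, while they did not overlap for 5.88% of all genes, and the median change of the 10 was -0.052, against 0.0172 over all genes. Fas had 4.06, 10.6 and 10.9 CPM in KO cDC2, against 6.10, 7.67 and 9.56 CPM in WT cDC2. KO replicate 1 was below, and the other KO libraries above, every WT library, and the log2 fold change was 0.13 (interval -0.540 to 0.809). Bmf had 72.3, 41.7 and 42.5 CPM in KO cDC2, against 70.3, 53.2 and 59.5 CPM in WT cDC2, with replicate 1 the highest in both groups and a log2 fold change of -0.23 (interval -0.732 to 0.282). Mcl1 averaged 815 ± 82.5 CPM in KO cDC2 and 866 ± 42.7 CPM in WT cDC2 (interval -0.477 to 0.300). Within replicates 2 and 3, 7.72% of all genes were called, and of the 10 only Bcl2 (-1.04, adjusted p = 0.0416), which had 11.2, 4.99 and 3.11 CPM in KO cDC2, against 4.94, 9.30 and 7.29 CPM in WT cDC2. The pair numbered 1 differed the other way, by 1.17, with no test.

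Whether the genotype effect differed between the subsets was tested directly, as the effect in cDC1 minus that in cDC2. None of the 10 genes passed, where 1.42% of all genes did, and 3 of the 10 had an unadjusted p below 0.05, where 9.56% of all genes did. Fas had the largest difference, -2.08 (SE 0.49, adjusted p = 0.0629), followed in size by Bmf with 1.46 (SE 0.37, adjusted p = 0.0825), Bcl2 with 1.25 (SE 0.68, adjusted p = 0.657) and Mcl1 with 0.80 (SE 0.28, adjusted p = 0.28). These calls moved with the setting. DESeq2 called Fas (adjusted p = 0.00284), Bmf (0.016) and Mcl1 (0.0421), and edgeR called Fas and Bmf without WT cDC1 replicate 1 (0.0408 and 0.0415) and without KO cDC2 replicate 1 (0.00642 and 0.02). Within replicates 2 and 3, 7 of the 10 were called, where 38.3% of all genes were. With the mouse pool as a block the adjusted p was 0.175 for Fas and 0.0597 for Bmf. A cDC1 effect past the threshold and a cDC2 effect short of it thus do not show a difference between the subsets for these genes.

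The next comparison set the subsets against each other in WT. Bid was higher in cDC1, and Bcl2a1b and Bmf were lower. 3 of 10 genes were called, where 21.2% of all genes tested were, so the share was near that of all genes. 1 was higher (10.4% of all genes) and 2 lower (10.9%). The libraries did not overlap for 6 of the 10 and for 32.7% of all genes. The median log2 fold change (cDC1 over cDC2) was 0.287 over the 10 genes and 0.0191 over all. The comparisons between subsets use the same libraries as the comparisons between genotypes, so they are not independent of them.

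Bid, the BH3-only protein that caspase-8 cuts, had 65.4, 100.3 and 97.7 CPM in WT cDC1, against 39.1, 44.9 and 38.7 CPM in WT cDC2. All cDC1 libraries were higher, with a log2 fold change of 1.10 (SE 0.21, 2.15-fold, adjusted p = 0.00205). The call was held in all 21 alternatives, and was 1.25 within replicates 2 and 3 and 0.74 in the pair numbered 1. In GENCODE M21, 17.7% of the exon bases of Bid also belong to Bcl2l13 on the opposite strand, and whether counting used strand is not stated. GENCODE gives Bid 3550 exon bases, and its deposited gene length is 1891 bases. Such shares, here and below, are thus not shares of the bases that were counted.

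Bcl2a1b had 277.9, 405.1 and 483.3 CPM in WT cDC1, against 893.9, 857.6 and 1115 CPM in WT cDC2. Each cDC2 library was well above the highest cDC1 library, and the log2 fold change was -1.30 (SE 0.31, 0.407-fold, adjusted p = 0.00984; with the mouse pool as a block 0.0387). It was -1.14 within replicates 2 and 3 and -1.69 in the pair numbered 1. Beside the doubt over copies, 49.1% of its exon bases in GENCODE M21 are also annotated to Gm29094 on the same strand.

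Bmf had 36.9, 30.8 and 28.4 CPM in WT cDC1, against 70.3, 53.2 and 59.5 CPM in WT cDC2. The groups did not overlap, and the log2 fold change was -0.93 (SE 0.26, 0.526-fold, adjusted p = 0.0227). It was -0.91 within replicates 2 and 3 and -0.93 in the pair numbered 1. The call ended without WT cDC1 replicate 2 (adjusted p = 0.0824), WT cDC1 replicate 3 (0.0772) or WT cDC2 replicate 1 (0.0633). Fas was 14.2 ± 1.64 CPM in WT cDC1 and 7.78 ± 1.73 CPM in WT cDC2 without passing (0.87, SE 0.35, interval 0.193 to 1.55, adjusted p = 0.0961). Bak1 (0.44, interval 0.0263 to 0.861) and Mcl1 (-0.25, interval -0.644 to 0.134) also had libraries that did not overlap, and neither passed.

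In KO mice 5 of the 10 genes were called between the subsets, where 16.9% of all genes were, with 3 higher (8.45% of all genes) and 2 lower (8.43%). The libraries of 6 of the 10 did not overlap, against 47.8% of all genes. Bid, Bak1 and Bcl2 were higher in KO cDC1 than in KO cDC2, and Bcl2a1b and Fas were lower. With the mouse pool as a block, which joins the cDC1 and cDC2 libraries of the same mice, the calls for Bid and Bcl2a1b were kept, those for Bak1, Bcl2 and Fas ended, and Bcl2l11 passed, which made 3 calls in all. The median log2 fold change was 0.54 over the 10 genes and -0.00371 over all.

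Bid had 59.1, 71.4 and 75.8 CPM in KO cDC1, against 38.5, 40.8 and 35.3 CPM in KO cDC2, again with no overlap (0.85, SE 0.21, adjusted p = 0.0141; blocked 0.042). It was 0.94 within replicates 2 and 3 and 0.62 in the pair numbered 1, and its call ended without KO cDC1 replicate 2 (adjusted p = 0.0579) or 3 (0.0675) and without KO cDC2 replicate 3 (0.0724). Bcl2a1b had 423.9, 272.2 and 294.0 CPM in KO cDC1, against 653.5, 1363 and 1164 CPM in KO cDC2. KO cDC2 replicate 1 was the lowest of its group and still above all KO cDC1 libraries, and the log2 fold change was -1.68 (SE 0.32, 0.311-fold, adjusted p = 0.00299; blocked 0.0259). It was -2.17 within replicates 2 and 3 and -0.62 in the pair numbered 1, and all 21 alternatives called it.

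Fas was the reverse of its order in WT by mean, at 3.68 ± 0.548 CPM in KO cDC1 and 8.51 ± 3.86 CPM in KO cDC2. The highest KO cDC1 library, at 4.30 CPM, was above the lowest KO cDC2 library, at 4.06 CPM. The log2 fold change was -1.21 (SE 0.35, adjusted p = 0.0338), with the mouse pool as a block -1.09 (adjusted p = 0.0811). It was -1.51 within replicates 2 and 3 (adjusted p = 0.000209) and -0.22 in the pair numbered 1, and the call ended without any single library of KO cDC1 (adjusted p = 0.0741 to 0.126), without KO cDC2 replicate 2 or 3 (0.143 and 0.147) and without WT cDC1 replicate 2 (0.0514). It also ended with limma-voom (0.0929).

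Bcl2 averaged 19.6 ± 4.00 CPM in KO cDC1 and 6.45 ± 4.26 CPM in KO cDC2, with no overlap. Its log2 fold change was 1.60 (SE 0.49, adjusted p = 0.0415), blocked 1.78 (adjusted p = 0.0519), 2.07 within replicates 2 and 3 and 1.10 in the pair numbered 1. Bak1 averaged 147.8 ± 10.1 CPM in KO cDC1 and 91.1 ± 13.9 CPM in KO cDC2, with no overlap, a log2 fold change of 0.70 (SE 0.21, adjusted p = 0.0415; blocked 0.0776), 0.79 within replicates 2 and 3 and 0.52 in the pair numbered 1. Leaving out any single KO cDC1 library, KO cDC2 replicate 2 or 3, WT cDC1 replicate 2 or WT cDC2 replicate 2 ended both calls, with an adjusted p of up to 0.161 for Bcl2 and up to 0.166 for Bak1, and the call for Bak1 also ended with no filter on low counts (0.0674). For Bak1, 25.5% of the GENCODE exon bases are shared with Ggnbp1 on the opposite strand, and for Bcl2, 6.09% with D630008O14Rik on the opposite strand. Bcl2l11 had 63.2, 28.7 and 27.0 CPM in KO cDC1, against 26.7, 12.8 and 13.3 CPM in KO cDC2. In each pool the cDC1 library was more than double the cDC2 library, and its log2 fold change of 1.17 (SE 0.50, adjusted p = 0.132) passed with the pool as a block (1.14, adjusted p = 0.042). Bmf (0.53, interval 0.0258 to 1.04, adjusted p = 0.182), Mcl1 (0.55, adjusted p = 0.0792), Bcl2l1 (0.31) and Bax (-0.37) did not pass. Of the GENCODE exon bases of Bax, 12.2% are also annotated to Gm45808 on the same strand. Within replicates 2 and 3, 9 of the 10 genes were called in KO, where 49.2% of all genes were, and 5 of the 10 in WT, where 47.5% of all genes were.

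**Figure D3:**
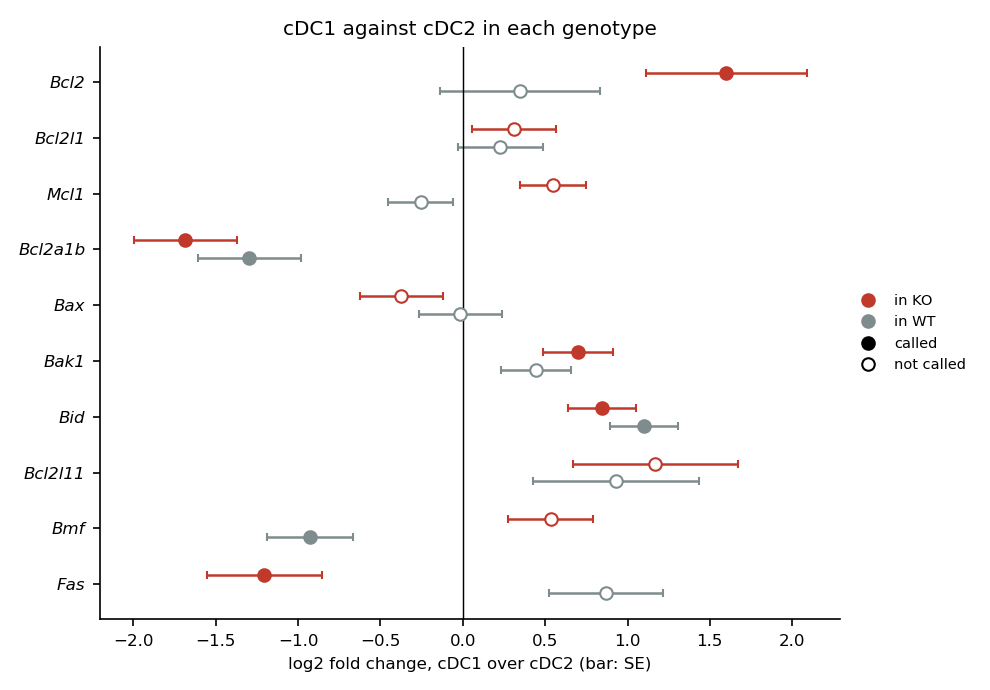
Log2 fold change of cDC1 over cDC2 (horizontal axis) for each gene in KO and in WT, with its SE as a bar; filled points were called at an adjusted p below 0.05 without a pool block. Bid (0.85 in KO, 1.10 in WT) and Bcl2a1b (-1.68 in KO, -1.30 in WT) are filled in both genotypes.

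Across the 4 groups by mean, Fas was ordered WT cDC1, KO cDC2, WT cDC2 and KO cDC1. The libraries of the middle pair overlapped, while both outer groups stood clear of their neighbours in this order. KO cDC1, up to 4.30 CPM, still overlapped KO cDC2, which went down to 4.06 CPM. Bmf was ordered KO cDC1, WT cDC2, KO cDC2 and WT cDC1, and the lowest group alone stood clear of its neighbour. Mcl1 was highest in KO cDC1 and lowest in WT cDC1, with the cDC2 groups overlapping between them. Bid and Bcl2a1b parted by subset and overlapped by genotype within each subset. All neighbouring groups overlapped for Bcl2l1, Bax and Bcl2l11.

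By the deposited assignment of reads, the Bcl2a1 copies did not keep the same proportions in the subsets. The other copies are Bcl2a1a, at 245.0 ± 52.6 CPM in KO cDC1, 315.5 ± 112.1 in WT cDC1, 528.5 ± 204.0 in KO cDC2 and 450.3 ± 46.4 in WT cDC2, and Bcl2a1d, at 373.9 ± 82.9, 486.8 ± 162.1, 808.7 ± 246.9 and 753.7 ± 101.8 CPM. Bcl2a1b reads per Bcl2a1d read were 0.905, 0.867 and 0.867 in KO cDC1 and 0.889, 0.788 and 0.763 in WT cDC1, against 1.23, 1.35 and 1.32 in KO cDC2 and 1.28, 1.24 and 1.28 in WT cDC2. Every cDC1 library was below 1 and every cDC2 library above it. The ratio was lower in the cDC1 than in the cDC2 library of 6 of 6 mouse pools, by a mean of -0.602 on the log2 scale (SD 0.106; exact two-sided sign-flip test over pools, p = 0.0312, the smallest that 6 pools allow, and 0.0469 adjusted over 3 ratios). Bcl2a1b per Bcl2a1a was also lower in cDC1 in 6 of 6 pools (-0.674, SD 0.198, exact p = 0.0312, adjusted 0.0469). Bcl2a1a per Bcl2a1d differed by 0.0722 (SD 0.152, exact p = 0.281). These ratios were chosen after the values had been seen, and the 2 that passed share Bcl2a1b as numerator. Bcl2a1c was at 4.34 to 9.08 CPM by group mean. In KO, Bcl2a1a (-1.11, adjusted p = 0.0405), Bcl2a1d (-1.11, adjusted p = 0.0279) and Bcl2a1c (-1.06, adjusted p = 0.0325) were lower in cDC1 than in cDC2 by edgeR, and in WT none of these 3 passed. Within replicates 2 and 3 they differed by -1.58, -1.55 and -1.41, and in the pair numbered 1 by 0.0084, -0.19 and -0.28, with no test. With the mouse pool as a block all 3 calls ended (adjusted p = 0.128, 0.0811 and 0.106), as they did without KO cDC1 replicate 2 or 3 or KO cDC2 replicate 2 or 3 (0.0958 to 0.178). The calls for Bcl2a1a and Bcl2a1c also ended without KO cDC1 replicate 1 (0.0634 and 0.07) and without WT cDC1 replicate 2 (0.0588 and 0.0505), and that for Bcl2a1a without WT cDC2 replicate 2 (0.0551). The call for Bcl2a1c ended with gene length offsets (0.371) and with no filter on low counts (0.0502) as well. Of 21 alternatives, 12 called Bcl2a1a, 12 Bcl2a1c and 16 Bcl2a1d. Not every setting that ended the call for Bcl2a1a is listed here.

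**Figure D4:**
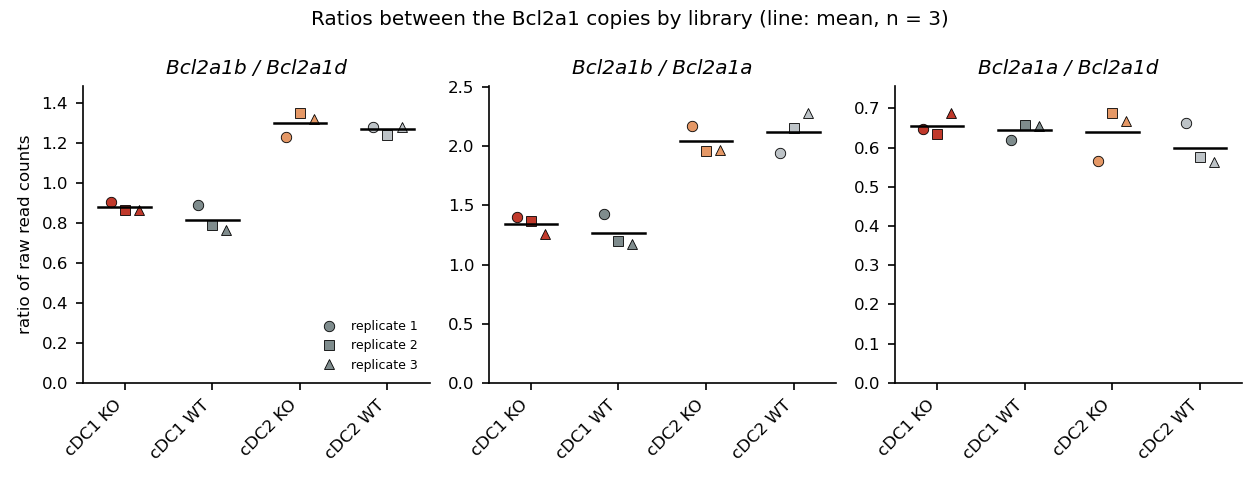
Ratio of raw read counts between Bcl2a1 copies (vertical axes from 0) in the 12 libraries, by group, with the mean as a line (n = 3). Bcl2a1b per Bcl2a1d lies at 0.763 to 0.905 in cDC1 and at 1.23 to 1.35 in cDC2, while Bcl2a1a per Bcl2a1d overlaps.

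The genes around the family were read from 6 lists of 54 genes, chosen with earlier results of these data known: other survival and death members, atypical relatives, the death receptor pathway, apoptosome and caspases, and upstream regulators. 50 were tested, and Bcl2l10, Bok, Bik and Hrk had too few reads. In KO cDC1, 1 gene rose, 2 fell and 47 did not pass, a share near the 5.32% called of all genes, and the median of the 50 was 0.095. Tnfsf10, which encodes the death ligand TRAIL, had 5.65, 5.92 and 3.69 CPM in KO cDC1, against 0.550, 1.07 and 1.16 CPM in WT cDC1. All KO libraries were higher (2.45, SE 0.35, edgeR adjusted p = 0.00127). KO cDC2 had 5.60 to 6.59 CPM and WT cDC2 6.17 to 9.02 CPM, so that KO cDC1 came near the level of cDC2. Its effect also differed between the subsets (2.80, SE 0.47, edgeR adjusted p = 0.009), the only call of that kind in the lists. Within replicates 2 and 3 its change in cDC1 was 2.08, and 3.18 in the pair numbered 1. Casp6, an executioner caspase, fell to 51.0, 47.6 and 46.0 CPM in KO cDC1, against 89.6, 137.1 and 147.4 CPM in WT cDC1 (-1.37, SE 0.22, edgeR adjusted p = 0.00269). It differed by -1.63 within replicates 2 and 3 and by -0.81 in the pair numbered 1. Cycs, cytochrome c, fell to 46.6 ± 3.40 CPM in KO cDC1, against 90.7 ± 23.7 CPM in WT cDC1 (-0.96, SE 0.22, edgeR adjusted p = 0.0229). That call ended in the fit on the 6 libraries alone, without any single KO cDC1 library and without WT cDC1 replicate 2 or 3 (adjusted p = 0.0539 to 0.129), and the change was -1.20 within replicates 2 and 3 and -0.43 in the pair numbered 1.

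By list, the death receptor pathway had 1 call higher in KO cDC1 and 11 of 12 genes not called, with a median of 0.117. The apoptosome and caspases had 2 lower and 12 of 14 not called (median -0.0412). The 4 other survival members tested (median -0.373), 3 other death members (0.491), 6 atypical relatives (-0.162) and 11 upstream regulators (0.22) had no call. Chosen after their values were seen, 2 genes without a call are the receptor's own partners: the ligand gene Fasl (0.548 ± 0.281 CPM in KO cDC1, 0.123 ± 0.115 CPM in WT cDC1) and Casp8, whose caspase Fas recruits (log2 fold change 0.17, SE 0.21). In cDC2 none of the 50 passed by edgeR, and none had an unadjusted p below 0.05.

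**Figure D5:**
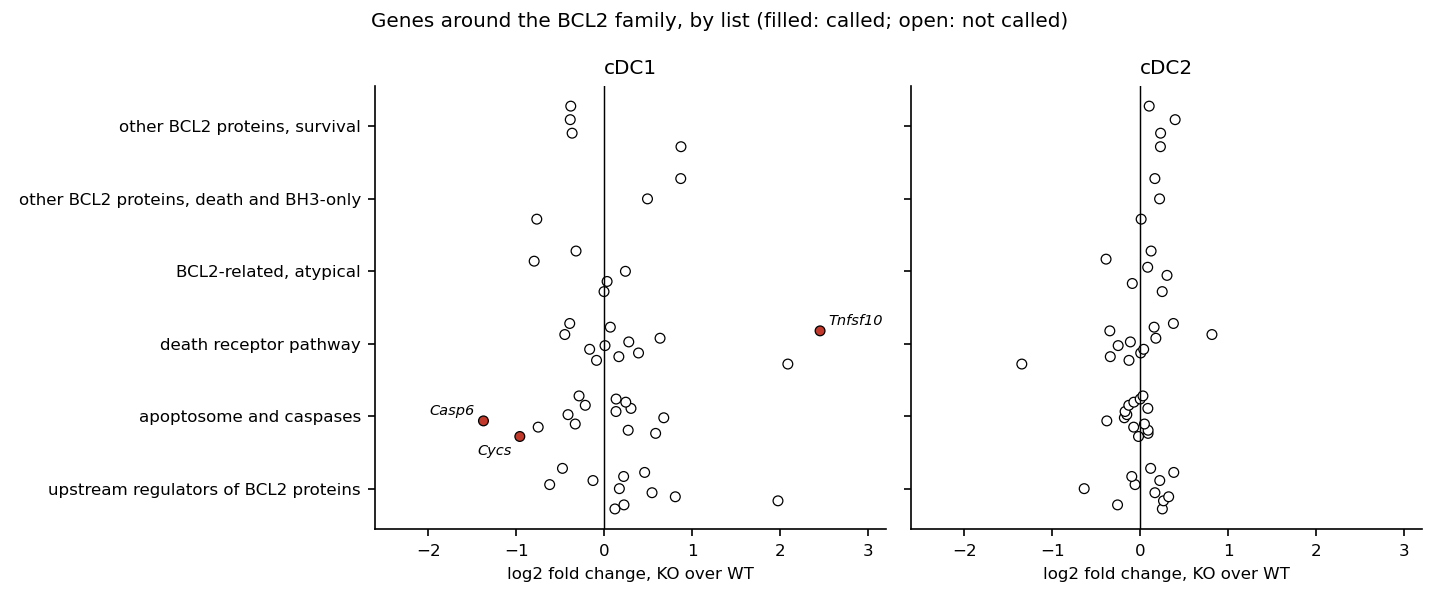
Log2 fold change of KO over WT (horizontal axes) for the tested genes of 6 lists in cDC1 and cDC2; filled, named points were called at an adjusted p below 0.05. Tnfsf10 (2.45), Casp6 (-1.37) and Cycs (-0.96) are filled in cDC1 and no gene in cDC2; Bcl2l15, with no read in KO cDC1, is not drawn there.

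Between the subsets, 6 of the 50 genes were higher and 8 lower in KO cDC1 than in KO cDC2, and 6 were higher and 6 lower in WT cDC1 than in WT cDC2. Beside these 14 and 12 calls among 50 genes, 16.9% of all genes were called in KO and 21.2% in WT. The 14 calls in KO include the 3 other Bcl2a1 copies, whose reads are hard to tell apart. With the mouse pool as a block those 3 calls ended. The medians were -0.0199 in KO and -0.0253 in WT. 4 of the 14 calls in KO and 5 of the 12 in WT held in every alternative tested, among them those of Casp6, Dynll2 and Bcl2l14 in both genotypes. Higher in cDC1 in both genotypes were Casp6 (1.04 in KO, 2.03 in WT), Dynll2, the dynein light chain that holds BMF (1.16 and 1.51), and Bcl2l14, a relative also called BCL-G (2.62 and 2.68). Lower in cDC1 in both were Traf2, an adaptor of tumour necrosis factor receptors (-0.57 and -0.96), and Birc2, an inhibitor of apoptosis (-0.76 and -0.68). Dynll1, the light chain that binds BIM, was lower in KO cDC1 than in KO cDC2 (-1.10, edgeR adjusted p = 0.016), as was the mitophagy receptor gene Bnip3l (-0.87). Casp2 (1.27), Mdm2, which restrains p53 (0.67), and the forkhead gene Foxo1 (0.85) were higher in KO cDC1. Bcl2l15 had no read in KO cDC1 and 100 reads in KO cDC2, at least 26.4-fold lower against a floor of 3 reads over the group, and was also lower in WT cDC1 than in WT cDC2 (-3.69, edgeR adjusted p = 0.0408, called in 5 of 20 alternatives). Called higher in WT cDC1 and not in KO cDC1 were Cycs (1.00) and Ripk1, a kinase of the death receptor complex (1.03). Tnfsf10 (-3.07) and Fasl (-3.65, with 7 reads in WT cDC1 and 96 in WT cDC2) were called lower in WT cDC1. So was Bbc3, which encodes the BH3-only protein PUMA (-0.80, called in 9 of 21 alternatives).

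The genes whose levels ran most like each called member were found over the 12 libraries among 8777 genes. These Pearson correlations of log2 CPM describe shared patterns of library, subset and gene length alike. The closest to Fas was Fyttd1 (0.93), followed by Kdm1b (0.878) and Prelid3b (0.875). Bmf ran with Cebpa (0.951), Shisa5 (0.95) and Ctsc (0.944), Bid with Pdia3 and Asl (0.978 each) and Acadl (0.974), and Bak1 with Cmtm3 (0.983), Fam20b and Vipas39 (0.977 each). Bcl2 ran with Rcsd1 (0.97), E2f3 and Csf2rb2 (0.958 each), and Bcl2a1b with Nt5dc1 (0.975), Ggct and Fbxo8 (0.971 each).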

How the data were processed

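Counts of reads per gene, made by the authors with featureCounts on GRCm38 (mm10) per the submitters' processing notes, were deposited as raw whole numbers under Entrez Gene identifiers for 27179 genes. No version is given there, and the aligner is not given in the sources used here. The deposited table also holds gene lengths in bases, and the 12 per-sample files hold the same counts as the series table. RefSeq's table of GRCm38.p6 gave symbols for 25275 genes; genes with no symbol held 2.23% of the reads.

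edgeR 4.0.16 in R 4.3.3 was fitted to all 12 libraries, with 1 mean per group, TMM scaling, robust quasi-likelihood dispersions and no block, on the 13415 genes that filterByExpr kept. Adjusted p-values (Benjamini-Hochberg over all genes tested) were called below 0.05, and the SE was taken as |log2 fold change| / √F. Intervals are at the 95% level, as 1.96 SE to either side. The precision follows from 11330503 to 36761685 counts per library and n = 3.

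The 10 genes and all lists were chosen with earlier results of these data known. The text names all 10 genes, up to 4 called genes per list and comparison (1 of these is not reported here), the Bcl2a1 copies, and the 3 genes most like each called member (prior count 2, at least 10 CPM in the highest group). Alternatives were DESeq2 1.42.0, limma-voom (limma 3.58.1), other size factors, no filter, gene length offsets, blocks, only the libraries compared, replicates 2 and 3, and leaving out each library. Sequences came from RefSeq (GRCm38.p6) and GENCODE M21.

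Per the labels, each mouse pool gave both subsets, which pairs them. Residual correlations within a pool were 0.275, 0.098 and 0.306 in KO and -0.338, -0.313 and -0.193 in WT. The edgeR fit was tested on simulated counts with known changes. Those counts held no replicate split, length trend or pool pairing, so that test does not bear on them.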

Additional observations from a re-analysis of the deposited data

Results flagged for a closer look

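Mcl1 was singled out because its order between the subsets turned with genotype without any overlap of libraries. It had 1410, 1139 and 1023 CPM in KO cDC1 and 908, 785 and 752 CPM in KO cDC2, so all cDC1 libraries were higher, while in WT it had 721, 724 and 733 CPM in cDC1 and 820, 875 and 904 CPM in cDC2, so all cDC1 libraries were lower. The subset difference in KO minus that in WT was 0.80 on the log2 scale. The direct test of this difference did not pass with edgeR (adjusted p = 0.28) and passed with DESeq2 (adjusted p = 0.0421). Of 20 alternatives, 2 called it. Neither subset difference alone passed with edgeR (adjusted p = 0.0792 in KO and 0.407 in WT). Libraries did not overlap between the subsets for 47.8% of all genes in KO and 32.7% in WT, in either direction and for each genotype alone. The share of all genes whose order turned without overlap in both was not counted, so how rare this is cannot be told.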

How the results depend on the processing

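The calls for Fas in cDC1, Bid and Bcl2a1b between the WT subsets, and Bcl2a1b between the KO subsets held in every alternative tested. With replicates 2 and 3 only, the members called numbered 8 in cDC1, 1 in cDC2, 7 for the difference of the genotype effects, 5 between subsets in WT and 9 in KO, and all genes called 6438, 1039, 5157, 6391 and 6620 in that order. DESeq2 called 1318 genes in cDC1 and, for the difference, 480 genes and 3 members. Of the genes called, 57.4% were higher in cDC1 and 73.5% for the difference with DESeq2, against 67.6% and 89.5% with edgeR. For the difference, gene length offsets called 300 genes, and the mouse pool block 116. With the mouse pool block, 3 members were called between subsets in KO. Fits on only the 6 libraries compared called 4172 genes between subsets in KO and 1537 in WT.

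Between genotypes, same-numbered deviations from the group mean had correlations of -0.048, -0.229 and 0.162 in cDC1 and 0.061, -0.085 and 0.042 in cDC2. Across subsets they were 0.589, 0.561 and 0.271 for KO cDC1 with WT cDC2. For WT cDC1 with KO cDC2 they were 0.554, 0.45 and 0.547. Whether replicate numbers link the genotypes was not tested. The replicate block called 2, 0, 1, 7 and 3 members (cDC1, cDC2, difference, subsets in KO, subsets in WT), and with the replicate block Bcl2l11 in cDC2 was -0.038. The single member called for the difference with this block was Bmf (adjusted p = 0.0144).

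Leaving out 1 library gave 1 to 5 members and 318 to 3052 genes in cDC1, 0 to 2 members and 110 to 501 genes for the difference, and 1 to 7 members and 1209 to 3382 genes between subsets in KO. Genes called in cDC1 numbered 318 without WT cDC1 replicate 2 and 3052 without WT cDC1 replicate 1.

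In the tested alternatives, signs turned only for genes with small, uncalled changes. Signs also turned in the libraries numbered 1, which had no test, and examples are given last. With replicates 2 and 3, Bcl2 between WT subsets was -0.46, Bcl2l1 was 0.053 in cDC2 and -0.074 for the difference, Bax was 0.32 in cDC2 and 0.28 between WT subsets, and Bcl2l11 was -0.17 in cDC2. With gene length offsets, Bcl2a1b was 0.076 in cDC1, Bax was 0.034 in cDC2, 0.069 between KO subsets and 0.19 between WT subsets, Bcl2l11 was -0.15 in cDC2, and Bcl2a1c was 0.0047 in cDC1 and 0.17 between WT subsets. With DESeq2 size factors Bax was 0.0054 in cDC2 and 0.0035 between WT subsets, and with DESeq2 itself 0.0052 and 0.0034. With limma-voom Bcl2l11 in cDC2 was -0.023. Leaving out 1 library gave, in cDC1, -0.20 to 0.11 for Bcl2l1 and -0.23 to 1.10 for Bcl2l11. In cDC2 it gave -0.33 to 0.10 for Bcl2l1, -0.070 to 0.40 for Bcl2a1b, -0.22 to 0.20 for Bax, -0.39 to 0.26 for Bcl2l11, -0.82 to 0.18 for Bcl2, -0.11 to 0.28 for Bak1, -0.082 to 0.47 for Fas, -0.013 to 0.51 for Bcl2a1a and -0.086 to 0.33 for Bcl2a1d. For the difference it gave -0.16 to 0.25 for Bcl2l1 and -0.27 to 1.05 for Bcl2l11, and between WT subsets -0.25 to 0.63 for Bcl2 and -0.12 to 0.16 for Bax. In the libraries numbered 1, Bcl2a1a between KO subsets was 0.0084, with no test, where all 12 libraries gave a called -1.11. Bcl2 there was 0.66 in cDC1 and 1.17 in cDC2, so the sign of its difference turned, where all 12 libraries gave 1.25. Bcl2a1a was 0.64 in cDC1 and -0.62 in cDC2, against -0.37 and 0.23 over all 12. Fas in cDC2 was -0.58, against 0.13 over all 12. The cause of these changes was not tested. With 3 libraries per group and 276 to 785 reads of Fas per group, depth and number limit what can be told.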
